A study of Mus musculus with 3 samples.

Results

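ON cone bipolar cells of the mouse retina were examined in the largest cone bipolar cluster of a single-cell RNA-seq data set, the cells to which the authors' deposited cell table gives cluster number 3. The cluster held 1285 of 15242 cells, with 386 from the WT library, 501 from the rd10-vehicle library and 398 from the rd10-TMB library. All mice were on the C57BL/6J background, were raised in darkness for their whole life and were 8 weeks old. The WT library came from wildtype mice of both sexes on base chow, the rd10-vehicle library from female Rd10 mice on the same chow, and the rd10-TMB library from female Rd10 mice that ate chow with tamsulosin, metoprolol and bromocriptine. The Rd10 line carries a point mutation in Pde6b, the gene of a rod phosphodiesterase subunit, and loses its rods first. The libraries are called WT, vehicle and TMB below. Each group was 1 library pooled from 1 retina of each of 4 mice per the labels, and the methods of the study give a smaller number for the rd10 groups. There were therefore no replicates, no test between groups was possible, and all 95% intervals given here cover counting error only. Genotype and library cannot be told apart in any contrast with WT, and sex cannot be told apart from them where all WT cells are used. One alternative kept only the 177 WT cells in which Xist, but no Y-linked gene, was counted. Its values are given below, and the part of sex was not tested further.

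Bipolar cells carry signals from photoreceptors to the inner retina. ON bipolar cells sense glutamate with the metabotropic receptor mGluR6, encoded by Grm6, which in darkness holds the cation channel TRPM1 shut through the G protein Go. Light lowers glutamate, the channel opens and the cell depolarises. ON cone bipolar cells come in several types that share this cascade and differ in their adhesion molecules, calcium-binding proteins, channels and transcription factors. Rod bipolar cells use the same cascade, whereas OFF bipolar cells use ionotropic glutamate receptors.

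Cluster 3 carried the markers of ON cone bipolar cells. Levels are in CPM, the UMIs (unique molecular identifiers, that is counted RNA molecules) of a gene scaled to a total of 1000000 over the summed cells. Of 12 listed ON bipolar markers, 12 reached 20 CPM and 10 were at least 2-fold above the remaining cells. Grm6 stood at 464 CPM in WT (498 UMIs, interval 424 to 507), 541 with vehicle (773 UMIs, 503 to 580) and 569 with TMB (742 UMIs, 528 to 611). Isl1, a homeobox gene of ON bipolar cells, was at 588, 662 and 640 CPM in the same order. In the OFF cone bipolar-like clusters 7 and 8 Grm6 lay between 11.9 and 60.1 CPM, and Isl1 between 29.8 and 69.6. The rod bipolar-like cluster 2 had more of both, 705 to 756 CPM for Grm6 and 1369 to 1501 for Isl1. Prkca, the protein kinase C alpha gene that marks rod bipolar cells, was at 80.1 CPM in cluster 3 and 2758 in cluster 2. Of 6 rod bipolar markers 5 reached 20 CPM in cluster 3, the highest at 914, and 1 was at least 2-fold above the remaining cells. The list summed to 1021 CPM in WT, 1198 with vehicle and 1232 with TMB, against 6734 to 7373 in the libraries of cluster 2. Of 12 OFF bipolar markers 4 reached 20 CPM, of 10 amacrine markers 1, of 13 rod markers 12, of 7 cone markers 6 and of 10 Müller glia markers 3. At least 2-fold above the remaining cells were 3 OFF bipolar markers, 1 rod marker and no amacrine, cone or Müller glia marker. Of 5 horizontal cell markers 1 reached 20 CPM, at 122, and Lhx1 and Onecut1 of that list were at 0. No endothelial, microglia, ganglion cell or red cell marker reached 20 CPM, and P2ry12 and 3 globin genes were at 0.

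Htr3a and Cpne9 marked only some of the cells. Htr3a, a serotonin receptor channel, had 16 UMIs in WT, 81 with vehicle and 80 with TMB, or 14.9, 56.7 and 61.3 CPM. The WT interval of 8.52 to 24.2 lay below the rd10-vehicle interval of 45.0 to 70.4. Cpne9, which encodes a copine, was at 95.1, 89.5 and 99.6 CPM with overlapping intervals. In the libraries of clusters 2, 6, 7, 8 and 10 Htr3a was at 5.96 CPM or less and Cpne9 at 15.9 or less.

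**Figure D1:**
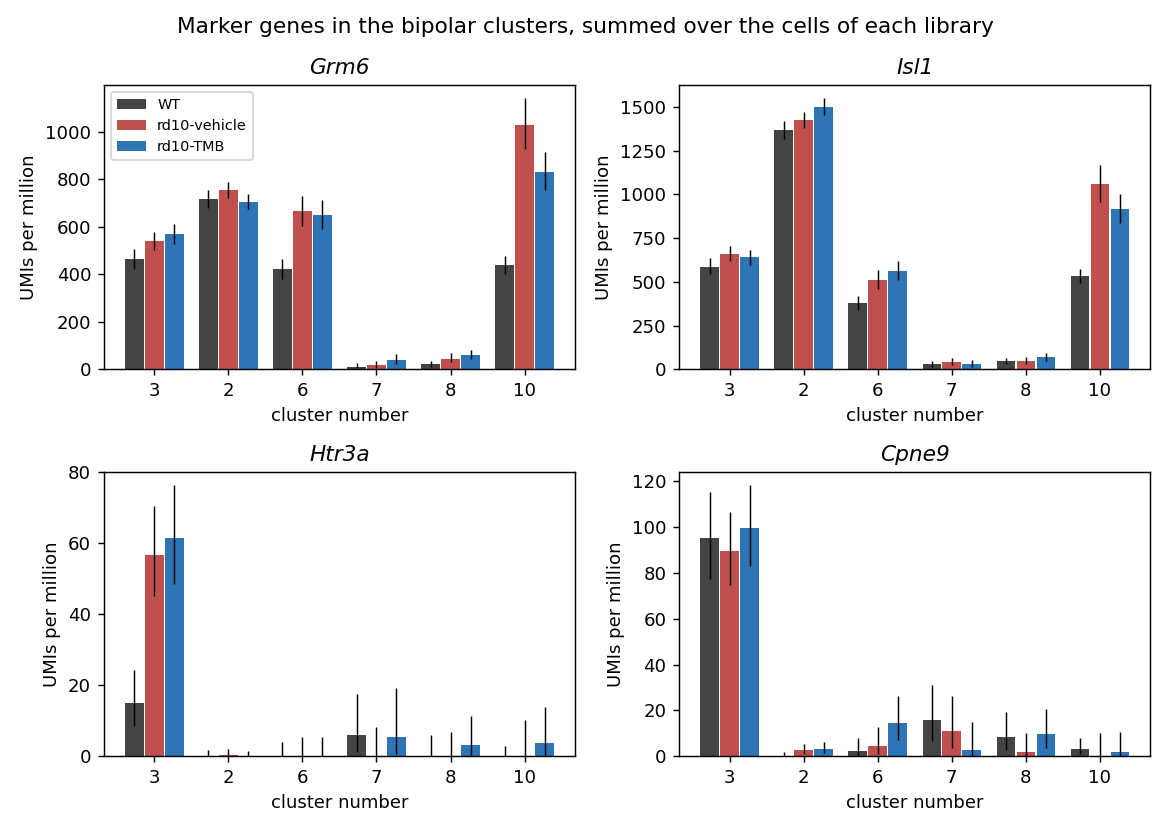
Level of Grm6, Isl1, Htr3a and Cpne9 (CPM, linear axes from 0) in 6 bipolar clusters, 1 bar per library, with exact Poisson intervals of 95% as error bars. Htr3a and Cpne9 are high in cluster 3 alone among these clusters, Grm6 and Isl1 are also high in clusters 2, 6 and 10, and the WT bar of Htr3a (14.9) is below both rd10 bars.

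Among genes of at least 50 CPM, the 15 with the highest ratio of cluster 3 to all other cells began with Cntn5, an adhesion molecule of the contactin family (chr9:9634223-10904775, RefSeq on GRCm38.p6, the mm10 build). Cntn5 was at 397 CPM against 6.73 elsewhere, a 59.0-fold ratio. Adarb2, a catalytically inactive relative of the RNA-editing enzymes (chr13:8202526-8768762), was at 243 against 7.01, and Cpne9 (chr6:113282283-113305571) at 94.6 against 2.79. Also among the 15 were the adhesion and guidance genes Epha7 (17.5-fold) and Cdh9 (14.9-fold), the potassium channel subunit gene Kcng4 (17.6-fold), the transcription factor gene Neurod2 (15.2-fold) and Nyx (14.3-fold), whose product nyctalopin holds TRPM1 at the dendritic tip. Some were as high or higher in a neighbouring cluster, with Cdh9 at 88.8 CPM in cluster 3 and 160 in cluster 6, and Neurod2 at 117 in cluster 3 and 137 in cluster 10. These genes describe the cluster and were not tested, since the same cells were clustered on them.

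Depth differed between the libraries. The cells of cluster 3 had a median of 2464 UMIs in WT, 2992 with vehicle and 3515 with TMB, and summed to 1072955, 1429466 and 1304914 UMIs. The median mitochondrial share was 8.08% in WT, 6.35% with vehicle and 6.63% with TMB. No cell barcode was shared between libraries within the cluster. Cluster 3 made up 26.1% of the cells of the bipolar clusters 2, 3, 6, 7, 8 and 10 in WT (interval 23.9 to 28.4), 27.2% with vehicle (25.1 to 29.3) and 25.1% with TMB (22.9 to 27.3). These shares of the bipolar cells overlapped within their intervals. Among all cells without the Müller glia-like cluster 0 the WT share was lower, at 9.78% (8.87 to 10.7). It was 14.5% with vehicle (13.3 to 15.7) and 13.0% with TMB (11.8 to 14.2).

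The cluster was a mixture. A k-means split into 6 subgroups, made on library-centred values and lettered by falling median depth, gave 4 subgroups of well-covered cells (A to D, medians of 3061 to 3689 UMIs) and 2 of shallow cells (E at 1108 and F at 905 UMIs). The subgroups are given by their leading genes and no type name. Values that distinguish them are a description, because the same genes made the split.

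Subgroup A (340 cells) was led by Gas1, a hedgehog co-receptor gene, at 723 CPM against 29.8 in the other subgroups, followed by Vstm2a, Otor, Tmem200a and Brinp3. Its muscarinic receptor gene Chrm2 was at 99.6 CPM, and Gsg1 at 1264. Subgroup B (192 cells) held most Cpne9, at 485 CPM and at most 3.98 in A, C and D, together with the transcription factor gene Tshz2 (493) and the adhesion genes Pcdh11x (280) and Tenm1 (277). Subgroup C (373 cells) held Sox6 at 342 CPM, the sulfotransferase gene Hs3st4 at 318, Htr3a at 118 and the dopamine D2 receptor gene Drd2 at 118. Htr3a was also found in D, at 77.9. Subgroup D (93 cells) was led by Irx3, an Iroquois homeobox gene, at 195 CPM and none in A, B or C, with the adhesion genes Kirrel3 (294) and Lrrtm1 (212) and the homeobox gene Meis2 (1880).

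Leading genes of different subgroups were counted in the same cells. Of 264 cells with a Sox6 UMI, 8 (3.03%) had one of Gas1 and 2 (0.758%) one of Cpne9, which were found in 26.1% and 7.94% of all cluster 3 cells. Of 34 cells with an Irx3 UMI, 0 had one of Grm6, which was found in 63.4% of all cluster 3 cells, and 22 had one of Kirrel3. Of 143 cells with an Htr3a UMI, 80 also had one of Sox6, a gene of the same subgroup.

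The shallow subgroups stood apart. Subgroup E (273 cells) was led by Slit2, a secreted axon guidance protein gene, at 415 CPM against 24.9, with Ebf1, Grik2, Grin2b, Pcdh10 and the noncoding RNAs Rian and Gm26917. Its lowest genes against the others were Gng13 (428 against 3309), Mif and the ATP synthase gene Atp5o. Subgroup F (14 cells) carried the rod genes Pde6a, Grk1 and Sag, with Sag at 5859 CPM, and had no UMI of Isl1.

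**Figure D2:**
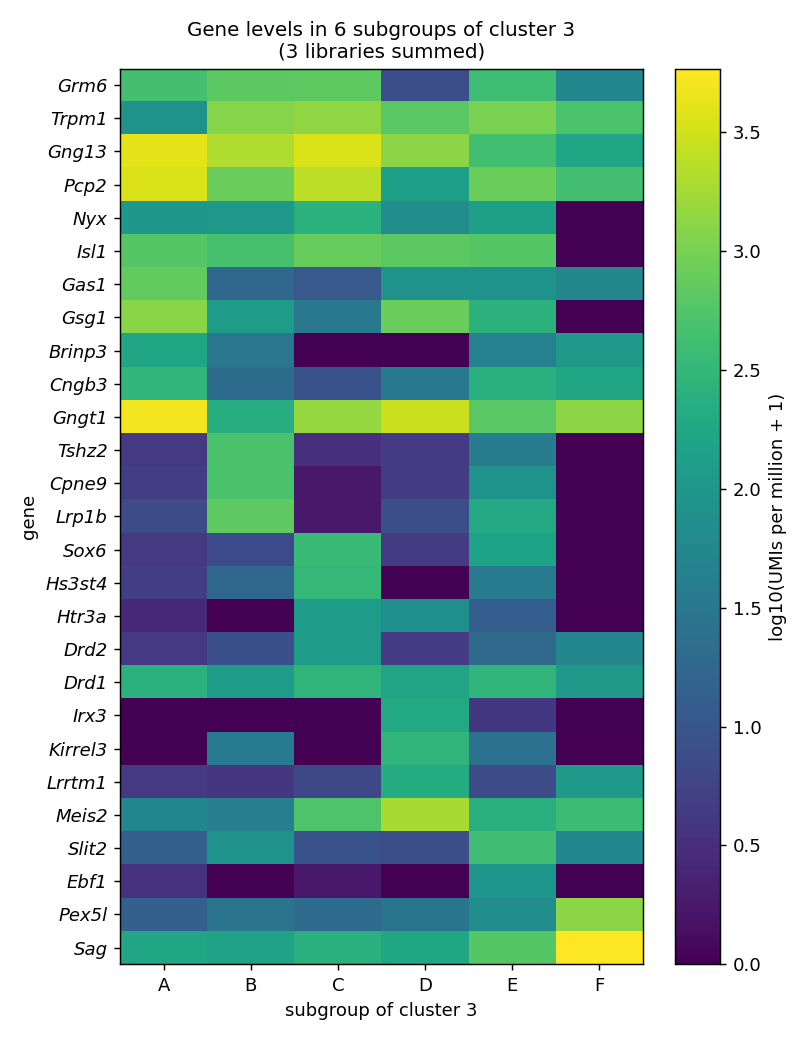
Levels of 27 genes (rows) in subgroups A to F of cluster 3 (columns), as log10 of CPM plus 1, with the 3 libraries summed. Gas1 is highest in A, Cpne9 in B, Sox6 and Htr3a in C and Irx3 in D, while Grm6 is near 0 in D (7.08 CPM for Grm6) and Slit2 is highest in E.

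WT cells fell into the shallow subgroup E more often. It took 35.5% of the WT cells (137 of 386, Clopper-Pearson interval 30.7 to 40.5), 13.0% with vehicle (10.2 to 16.2) and 17.8% with TMB (14.2 to 22.0). Subgroup C took 18.1%, 33.7% and 33.7%, subgroup A 25.4%, 28.3% and 25.1%, and subgroup B 14.8%, 14.4% and 15.8%. Subgroup D held 14, 53 and 26 cells, or 3.63%, 10.6% and 6.53%. The median depth of its cells was 2048 UMIs in WT, 3106 with vehicle and 3386 with TMB. Genes that set these subgroups apart differ between the libraries, so the makeup is given as an account of the cells and not as a change in their numbers. Values without E and F are given below where they were computed.

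**Figure D3:**
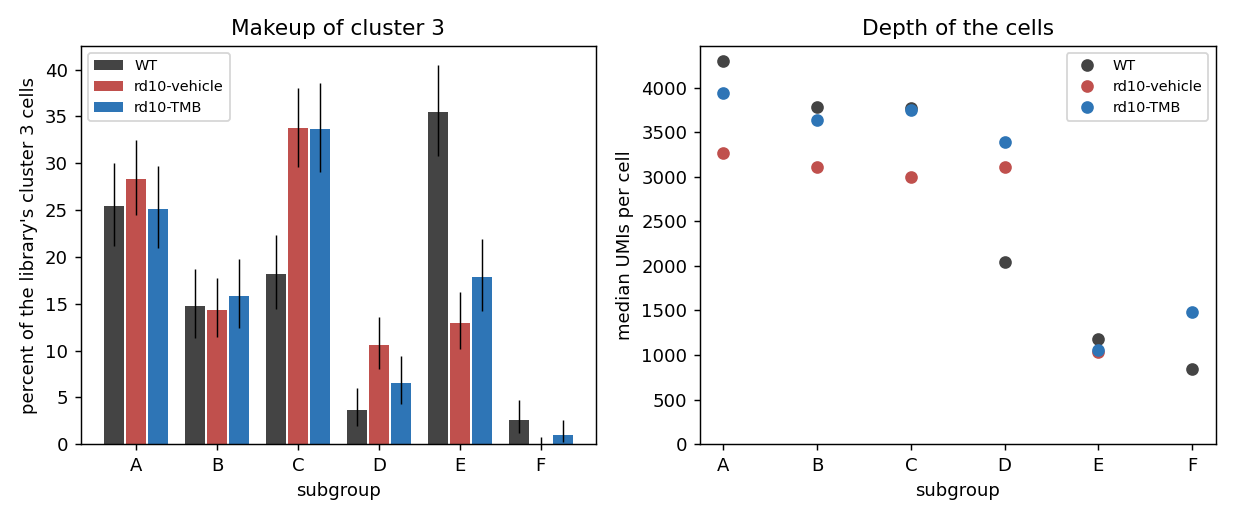
Left, percent of each library's cluster 3 cells in subgroups A to F with Clopper-Pearson intervals of 95% (bars from 0); right, median UMIs per cell of each subgroup and library. Subgroup E holds 35.5% of the WT cells and at most 17.8% of the cells of an rd10 library, and its cells are shallow in each library.

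The ON cascade was not uniform within the cluster. Of 13 listed cascade genes, 12 had at least 20 UMIs, and Lrit3 had 7. Grm6 was at 452, 659 and 692 CPM in A, B and C and at 7.08 in D, where 1 UMI was counted in each rd10 library and 0 in WT. Trpm1 showed another order, at 82.0 CPM in A against 1209 in B, 1377 in C and 637 in D. In A its level was 39.6 in WT, 91.1 with vehicle and 115 with TMB, and it was 622 or more in B, C and D of each library. Nyx was at 254 in C and between 70.8 and 108 in A, B and D. Gng13, the gamma subunit of Go in these cells, was at 4142 in A and 1313 in D, and Pcp2, a Go regulator, at 3746 in A and 135 in D.

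Sequences upstream of the gene starts are shown for the 2 cascade genes Trpm1 and Nyx, the first because it was low in subgroup A, where Grm6 was not, the second because it was among the 15 leading genes. Each is 250 bases before a start on the plus strand (RefSeq, GRCm38.p6). Trpm1 has 2 listed starts, of which the first is shown, and the window of the second (chr7:64185209-64185458) does not hold the letters marked here. Capitals mark GGATTA, the reverse complement of TAATCC, a core bound by the OTX2 and CRX homeodomain factors. Both strands were searched and the letters overlap no other motif searched.
Trpm1, chr7:64153585-64153834: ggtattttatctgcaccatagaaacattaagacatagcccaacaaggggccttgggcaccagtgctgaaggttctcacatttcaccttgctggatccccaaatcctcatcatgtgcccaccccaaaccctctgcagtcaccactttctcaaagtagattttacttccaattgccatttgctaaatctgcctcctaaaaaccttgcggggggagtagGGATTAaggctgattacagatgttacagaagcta
Nyx, chrX:13460840-13461089: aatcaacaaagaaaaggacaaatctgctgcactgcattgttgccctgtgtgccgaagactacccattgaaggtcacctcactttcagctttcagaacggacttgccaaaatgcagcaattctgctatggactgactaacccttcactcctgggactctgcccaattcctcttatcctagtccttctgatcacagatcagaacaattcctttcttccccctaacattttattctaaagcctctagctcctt
The letters were in 2 of 15 listed starts of the 10 cascade genes in the table, at Trpm1 and Gnb5, against 6.25% of all 32851 promoters. Otx2 itself was at 482 CPM in cluster 3, and at 460 to 522 in subgroups A to D.

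Phototransduction genes were part of the profile of some subgroups. Gngt1, the gamma subunit of rod transducin, stood at 2497 CPM in cluster 3 as a whole, and was named after its values were seen. In subgroup A it was at 5382 in WT, 4361 with vehicle and 5678 with TMB, with a UMI in 98.5% of the cells, and in subgroup B at 154, 271 and 226. Over the 3 libraries it was at 1508 in C and 2938 in D. Cngb3, a cone channel subunit, was also highest in A, at 344, 271 and 307 CPM, and at most 38.3 in B and C, with 249 in the shallow subgroup E. It too was named after its values were seen.

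Receptors for the transmitters that the TMB drugs act on were measured from a list of catecholamine receptors. Drd1, the dopamine D1 receptor gene, was the most abundant of them, with 344 UMIs (321 CPM) in WT, 271 (190) with vehicle and 299 (229) with TMB. The log2 ratio of rd10-vehicle over WT was -0.76 (-0.99 to -0.52), and that of rd10-TMB over rd10-vehicle was 0.27 (0.03 to 0.52). In A Drd1 stood at 354 CPM in WT, 204 with vehicle and 220 with TMB, and in C at 456, 232 and 277. In B it was at 131, 75.5 and 136 (28, 17 and 32 UMIs), so that WT was not the highest there, and in D it had 8, 24 and 13 UMIs. Drd2, the receptor gene for the class bromocriptine activates, had 36 UMIs in WT, 66 with vehicle and 64 with TMB, and both log2 ratios over WT had intervals that held 0. Within subgroup C, where 30.8% of the cells had a Drd2 UMI, it stood at 134, 118 and 111. Drd4, another D2-like receptor gene, had 49, 30 and 36 UMIs. The alpha-1 adrenergic receptor gene Adra1b, of the class tamsulosin blocks, had 42 UMIs in all, and Adrb1, the target of metoprolol, 28. Adra1d and Drd5 had none, which at a floor of 3 counts for a gene with none, which is not one of the exact 95% intervals used elsewhere, allows up to 3 UMIs in the 3807335 of the cluster.

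For rd10-vehicle over WT, 12 of 4503 genes with at least 100 UMIs over both libraries were at least 2-fold higher (0.266%) and 33 at least 2-fold lower (0.733%). Both counts were larger with each cell weighted equally, as given in the closing section. Among all genes with at least 20 UMIs, 46.6% had a ratio above 0. H2-D1, a class I histocompatibility gene, had 18 UMIs in WT and 106 with vehicle, a log2 ratio of 2.08 (1.41 to 2.95). The small heat shock protein gene Cryab followed (21 against 113 UMIs, 1.96), then Apoe (68 against 324, 1.82), Dapl1 (25 against 117, 1.77), Clu (74 against 323, 1.70) and Ly6h (112 against 397, 1.40). Of these 12 genes 10 stayed at least 2-fold higher without E and F, and 8 under each alternative that recomputed the ratio. Against the 177 WT cells that had Xist but no Y-linked UMI, 10 of the 12 stayed at least 2-fold higher. A minimum of 200 UMIs in place of 100 left 4 higher genes, and H2-D1, Cryab and Dapl1 have too few UMIs to be among them. Without E and F the log2 ratios were 2.06 for H2-D1, 1.85 for Cryab and 2.02 for Apoe.

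Apoe and Clu are Müller glia genes. The 10 listed Müller glia markers summed to 253 CPM in WT, 660 with vehicle and 561 with TMB of cluster 3, with 0 members at 0, and to 40990, 45981 and 45231 in the Müller glia-like cluster 0. In cluster 2 they summed to 114, 478 and 327. The Müller glia-like cells were 530 in the WT library, 2492 with vehicle and 1748 with TMB. Their part in the ratios of Apoe, Clu and Cryab was not tested.

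The lower genes were led by Slit2, with 174 UMIs in WT, 29 with vehicle and 16 with TMB, a log2 ratio of -2.96 for rd10-vehicle over WT. Pde10a, a cyclic nucleotide phosphodiesterase gene, had 122 UMIs in WT and 34 with vehicle (-2.23), the protocadherin gene Pcdh10 95 and 35 (-1.83) and the noncoding RNA Snhg11 744 and 288 (-1.78). Of the 33 genes, 25 were at their highest level, among A to E, in the shallow subgroup E. When the cells of E and F were left out, 16 of the 33 stayed at least 2-fold lower, and Pax6 turned from -1.03 to 0.24. Against the 177 WT cells that had Xist but no Y-linked UMI, 18 of the 33 stayed at least 2-fold lower. Under each alternative that recomputed the ratio 9 did so, and 14 genes were lower at a minimum of 200 UMIs. Amacrine markers summed to 189 CPM in WT and 50.4 with vehicle, with 0 of 10 at 0, and their part was not tested. In subgroup B alone Slit2 had 55 UMIs in WT and 1 in each rd10 library.

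Rod transcripts were among the lower genes. The transducin subunit gene Gnat1 was at 221 CPM in WT, 63.7 with vehicle and 134 with TMB, and Gnb1, another subunit gene, at 191, 61.6 and 117. The rod marker list summed to 5338, 3769 and 5087 CPM in cluster 3, of which Gngt1 was the largest member, and 0 of 13 members had a ratio above 0 for rd10-vehicle over WT. Their median was -0.80, and -0.51 without E and F. The same list summed to 1742, 1189 and 1631 in cluster 2. The part of free rod RNA in these ratios was not tested.

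**Figure D4:**
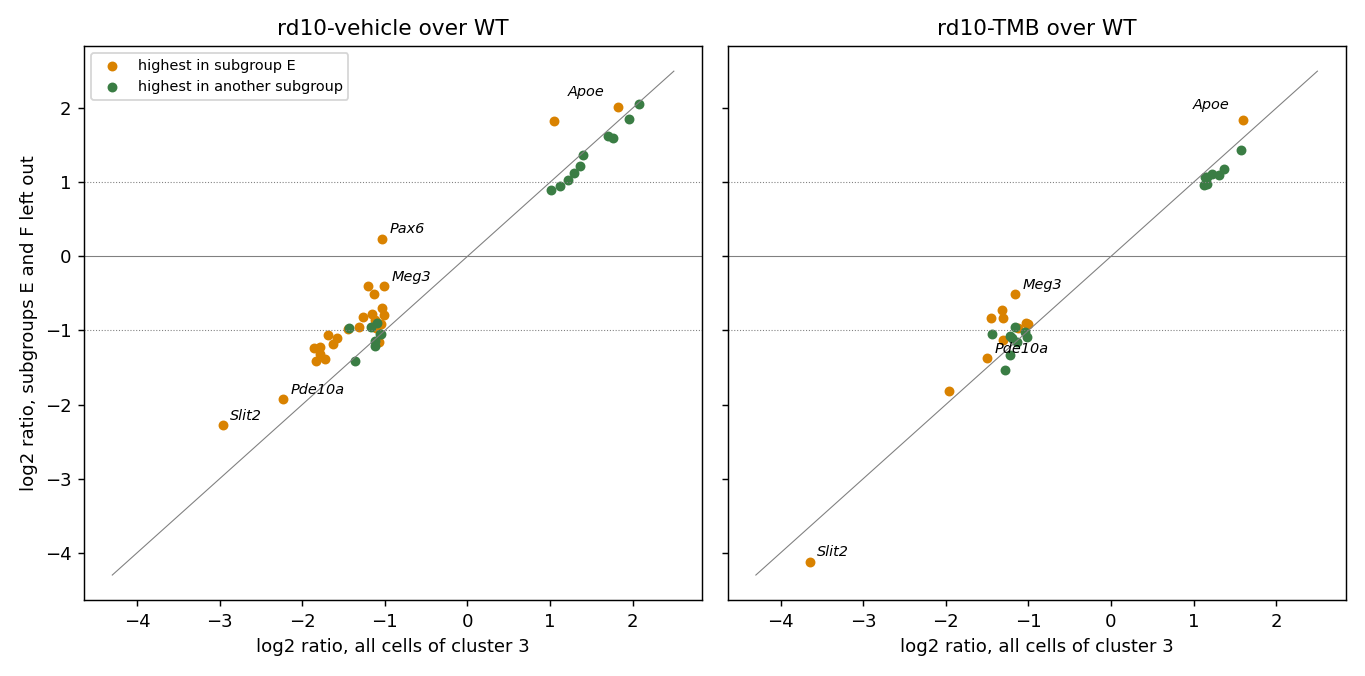
Genes past 2-fold for rd10-vehicle over WT (left) and rd10-TMB over WT (right), with the log2 ratio over all cells of cluster 3 on the x axis and with subgroups E and F left out on the y axis. Orange genes are highest in subgroup E, the grey diagonal marks equal values and the dotted lines 2-fold; Pax6 moves above 0 and Meg3 to -0.40 on the left.

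For rd10-TMB over WT, 9 of 4299 genes were at least 2-fold higher (0.209%) and 20 at least 2-fold lower (0.465%), and 45.5% of all genes with at least 20 UMIs had a ratio above 0. This contrast shares its WT library with the one before. Slit2 (-3.65), Pcdh10 (-1.96), Pde10a (-1.50) and Snhg11 (-1.45) were again among the 10 lowest ratios, and Apoe (1.60) and Cryab (1.58) among the 10 highest. H2-D1 was at 46.0 CPM with TMB, between 16.8 in WT and 74.2 with vehicle. Of the 20 lower genes 12 stayed at least 2-fold lower without E and F. Under each alternative that recomputed the ratio 4 of the 9 higher and 5 of the 20 lower genes stayed past 2-fold, while a minimum of 200 UMIs left 3 higher and 8 lower genes.

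For rd10-TMB over rd10-vehicle, 3 of 4732 genes were at least 2-fold higher (0.0634%) and 1 was at least 2-fold lower (0.0211%), and 50.1% of all genes with at least 20 UMIs had a ratio above 0. The higher genes included the phototransduction genes Pdc (115 against 224 UMIs, log2 ratio 1.09) and Gnat1 (91 against 175, 1.07). None of the 3 stayed past 2-fold once the 5% of cells with the most UMIs were left out. Msrb2, a methionine sulfoxide reductase gene, was the lower one, with 80 UMIs with vehicle and 29 with TMB (-1.30, interval -2.00 to -0.70), and it stayed past 2-fold under each alternative that recomputed the ratio. It has too few UMIs to be counted at a minimum of 200 UMIs, where 0 genes were at least 2-fold lower. In WT it had 41 UMIs, or 38.2 CPM against 56.0 with vehicle and 22.2 with TMB. Bnip3, a mitophagy receptor gene, was among the 10 highest ratios (168 against 279 UMIs, 0.86).

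Gene lists are described by the number of members with a ratio above 0 and by their median, beside a median over all genes of -0.04 for both contrasts with WT and 0.00 for the treatment contrast. In the ON cascade 10 of 12 measured genes had a ratio above 0 for rd10-vehicle over WT, with a median of 0.19, and 10 of 12 for rd10-TMB over WT, also 0.19. Without E and F the medians were 0.07 and 0.08. By subgroup the summed cascade level differed: its log2 ratio for rd10-vehicle over WT was -0.02 (-0.08 to 0.04) in A, 0.46 (0.36 to 0.56) in B, 0.01 (-0.05 to 0.08) in C and 0.49 (0.20 to 0.81) in D, which held 14 WT cells.

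Nuclear genes of the oxidative phosphorylation complexes summed to 27090 CPM in WT, 31643 with vehicle and 34257 with TMB over all cells of cluster 3. For rd10-vehicle over WT 70 of 79 had a ratio above 0 with a median of 0.23, for rd10-TMB over WT 76 of 79 with 0.32, and for rd10-TMB over rd10-vehicle 60 of 79 with 0.10. The study named genes of this kind on these same libraries, so the list is not independent evidence of its direction. Subgroup E, with its larger share of the WT cells, stood far from A to D in these genes. They summed to 7290 CPM in E and 27201 to 37055 in A to D, ribosomal protein genes to 15599 and 60678 to 79298, and the mitochondrially encoded genes to 136225 and 51226 to 84176. Without E and F the medians were 0.09 and 0.20 over WT and 0.11 for the treatment contrast. The split did not set these genes aside, and Atp5o was among the lowest genes of E, so leaving out E removes cells that are low in them, and the part of these cells in the ratios was not tested. For rd10-vehicle over WT the summed log2 ratio was 0.06 (0.03 to 0.09) in A and 0.12 (0.07 to 0.17) in B. It was 0.04 (0.00045 to 0.08) in C and 0.55 (0.44 to 0.67) in D. Subgroup D held 14 WT cells, with a median of 2048 UMIs against 3106 with vehicle. For the treatment contrast the summed log2 ratio was 0.16 (0.13 to 0.19) in A, 0.05 in B with an interval that held 0, 0.17 (0.14 to 0.20) in C and 0.12 (0.05 to 0.18) in D. The values in the neighbouring bipolar clusters were 0.17 in cluster 2, 0.14 in cluster 7 and 0.20 in cluster 8.

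Of the ribosomal protein genes 76 of 79 were above 0 for rd10-vehicle over WT, with a median of 0.23, and 0.10 without E and F. The subgroups did not share that direction. The summed log2 ratio was 0.09 (0.07 to 0.12) in A and -0.06 (-0.10 to -0.03) in B, with 24 of 77 above 0. It was 0.01 (-0.02 to 0.04) in C and 0.77 (0.69 to 0.85) in D. All values of D over WT here rest on 14 WT cells with a median of 2048 UMIs. Of the 13 genes encoded by mitochondrial DNA 1 was above 0, with a median of -0.21, and -0.06 without E and F. Keeping cells in which at most 10% of UMIs were mitochondrial gave a median of 0.014. Without that limit, over all cells of each subgroup, the summed log2 ratio was -0.01 (-0.03 to 0.01) in A, 0.25 (0.21 to 0.29) in B, -0.33 (-0.36 to -0.30) in C and -0.60 (-0.65 to -0.54) in D. Ionotropic glutamate receptor genes had 3 of 11 above 0 with a median of -0.50, and -0.16 without E and F. Gria2, the most abundant of them, was at 823, 582 and 514 CPM, and stood at 1857 in subgroup E against 298 to 720 in A to D. Adhesion genes had 5 of 25 above 0 with a median of -0.41, and -0.21 without E and F. Markers of OFF bipolar cells differed in the same direction. They summed to 527 CPM in WT, 256 with vehicle and 255 with TMB, with 1 of 9 measured members above 0 for rd10-vehicle over WT. In subgroup B they had 149 UMIs in WT and 31 with vehicle, a log2 ratio of -2.30 (-2.95 to -1.77), and in A 226 and 258, with an interval that held 0. Their part in the receptor and adhesion ratios was not tested.

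Immediate early genes, which neurons switch on within minutes of stimulation, were above 0 for rd10-TMB over rd10-vehicle in 12 of 12 measured members, with a median of 0.23. By subgroup the count was 9 of 10 in A, 5 of 9 in B, 7 of 10 in C and 8 of 9 in D. The summed log2 ratio of this contrast was 0.30 (0.22 to 0.38) in A, 0.22 (0.07 to 0.37) in B and 0.29 (0.11 to 0.48) in D, and 0.12 in C with an interval that held 0 (-0.01 to 0.25). Fos was at 1025, 1019 and 1143 CPM, Junb at 231, 317 and 370, and Fosb at 320, 310 and 369. The summed log2 ratio for rd10-vehicle over WT was 0.30 (0.21 to 0.40) in A and -0.67 (-0.81 to -0.52) in C, and for rd10-TMB over WT it was 0.60 in A and -0.55 in C. The Müller glia-like cells, whose markers also differ between these libraries, had Fos at 6073 CPM, and the part of their RNA was not tested.

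**Figure D5:**
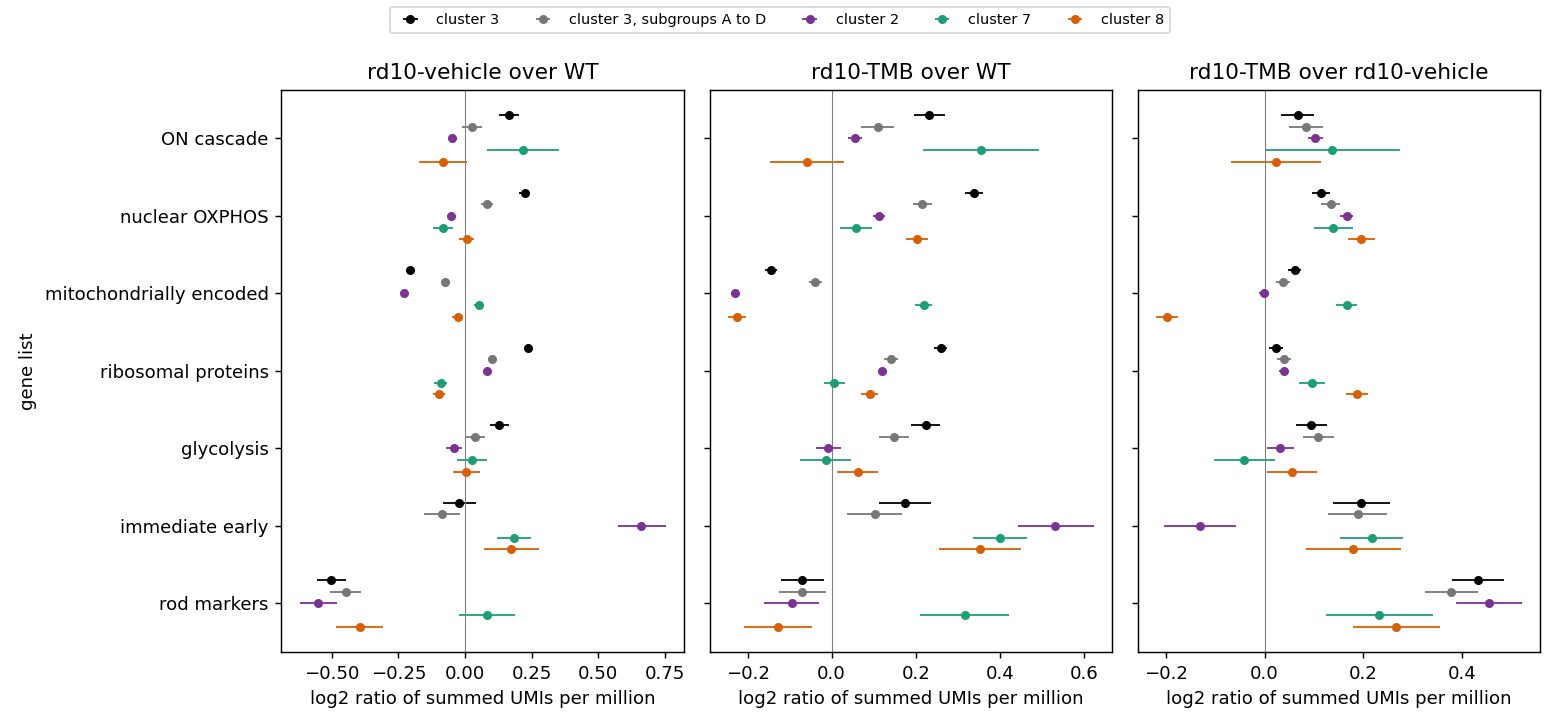
Log2 ratio of the summed CPM of 7 gene lists (rows) for the 3 contrasts, with exact conditional intervals of 95%, in cluster 3, in its subgroups A to D and in bipolar clusters 2, 7 and 8. Nuclear OXPHOS genes are above 0 in each cluster for rd10-TMB over rd10-vehicle, while immediate early genes are below 0 in cluster 2 (-0.13) and above 0 in cluster 3 (0.20).

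Shares of cells with a UMI were compared after each cell was thinned to 1000 UMIs, which left out 47 WT, 35 rd10-vehicle and 36 rd10-TMB cells. Grm6 was then found in 31.0% of the WT cells (26.1 to 36.2), 43.1% with vehicle (38.6 to 47.8) and 42.3% with TMB (37.1 to 47.5). Before thinning 30.8% of the cells of subgroup E, 2.15% of those of D and 75.9% to 85.0% of those of A, B and C had a Grm6 UMI, and the part of the makeup in these shares was not tested. In Müller glia-like cells, which should lack it, the shares were 0.190%, 0.444% and 0.637%. Htr3a was found in 1.18%, 6.44% and 5.25% of the cells, and in none of the thinned Müller glia-like cells. Cpne9 was found in 5.01%, 5.79% and 6.08%, with overlapping intervals. Unthinned, the shares were 51.3%, 68.9% and 68.3% for Grm6 and 3.63%, 14.0% and 14.8% for Htr3a. Within subgroup C alone Htr3a stood at 65.1 CPM in WT (16 UMIs), 130 with vehicle (66 UMIs) and 133 with TMB (67 UMIs), a smaller gap than over the whole cluster.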

How the data were processed

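Retinal cells of 3 pooled droplet libraries (WT, rd10-vehicle and rd10-TMB, 1 each) were analysed. The authors aligned reads to mm10 with Cell Ranger 6.0.1, took out the doublets called by Scrublet, and used Seurat 3.2.2 on cells of 500 genes or more. Values in the matrix deposited by the authors are on a natural log scale, as ln of 1 plus the UMIs scaled to a common total per cell, and the deposited cell table holds counts of UMIs and genes with the library and cluster of each cell. All values were turned back into UMI counts, of which 100% came out whole within 0.001 UMI. Counts were summed per library over the cells of cluster 3 and scaled to 1000000 (CPM). For log2 ratios 1 UMI was added in each library as a pseudocount, while their exact conditional intervals had none; levels carry exact Poisson intervals and shares Clopper-Pearson intervals. Each covers counting error only, since cells are not replicates.

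Named genes were the listed genes that reached 20 UMIs in the cluster, the 10 highest and 10 lowest ratios of each contrast where both libraries together held 100 UMIs or more, and the 15 genes with the highest ratio to all other cells at 50 CPM or more. Sex-linked genes were left out, and some named genes are not reported here. The members and the gene lists were chosen with earlier results of these data known. Subgroups came from k-means (6 groups, 20 starts) on 20 components of 1000 variable genes, without rod marker, immediate early, mitochondrial, ribosomal and sex-linked genes, in scikit-learn 1.9.0 with numpy 2.4.6 and scipy 1.17.1. No doublet caller was run, and the scripts were tested on simulated counts. The authors' tests over cells were not used.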

Additional observations from a re-analysis of the deposited data

Results flagged for a closer look

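The gene lists below had a summed level that went 1 way in cluster 3 and the other way in the rod bipolar-like cluster 2 under the same contrast, with both counting intervals clear of 0. With 1 library per group the differences were not tested. For rd10-vehicle over WT the log2 ratio of the summed level was 0.165 in cluster 3 and -0.0482 in cluster 2 for the ON cascade. It was 0.224 and -0.0532 for nuclear oxidative phosphorylation genes, and 0.129 and -0.0396 for glycolysis genes. Subgroup values of the first 2 lists are given above. Within cluster 3 the glycolysis interval held 0 in B (0.06), C (-0.04) and D (0.17), and A was at 0.09 (0.04 to 0.15). Subgroup E had 5414 CPM of glycolysis genes against 9373 to 13356 in A to D. For rd10-TMB over WT the log2 ratio of the summed level was 0.105 in cluster 3 and -0.0936 in cluster 2 for chaperone genes. Within cluster 3 that chaperone ratio had an interval that held 0 in A (0.08), B (-0.0027) and C (0.01), and was 0.48 (0.23 to 0.75) in D, which held 14 WT cells. The shallow subgroup E, with 35.5% of the WT cells, had 3116 CPM of these genes against 6049 to 7430 in A to D. For rd10-TMB over rd10-vehicle the log2 ratio of the summed level was 0.196 in cluster 3 and -0.13 in cluster 2 for immediate early genes. No group had enough libraries to look for a library far from the others.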

How the results depend on the processing

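Of the counts, list medians and shares recomputed under the alternatives, 46 counts stayed within 1.5 times the value given and 30 did not, 557 list medians stayed and 19 moved, and 4 shares stayed and 17 moved. Of the values of single genes named, 13062 stayed and 757 moved, 237 of them with each cell weighted equally and 136 with equal subgroup weights. Pax6 changed sign for rd10-vehicle over WT, to 0.29 in cells with at least 1000 genes and to 0.24 without subgroups E and F, an alternative chosen after seeing the data. Counts of genes past 2-fold are given as higher and lower. With each cell weighted equally they were 32 and 111 for rd10-vehicle over WT, 23 and 76 for rd10-TMB over WT and 13 and 2 for rd10-TMB over rd10-vehicle. With a minimum of 20 UMIs they were 142 and 299, 115 and 263, and 92 and 83, and with 200 UMIs 4 and 14, 3 and 8, and 0 lower in the treatment contrast. The lower genes numbered 17, 11 and 3 in cells with at least 1000 genes, 14, 8 and 4 without E and F, 11 and 7 against WT cells that had Xist but no Y-linked UMI, and 19 against WT and 2 in the treatment contrast at a mitochondrial share of 10% or less. Equal weights for subgroups gave 12 and 7 in the treatment contrast, and leaving out the deepest 5% of cells gave 1 higher.

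With each cell weighted equally the medians for rd10-vehicle over WT were 0.42 for the ON cascade, 0.45 for nuclear oxidative phosphorylation, 0.45 for ribosomal protein, -0.37 for mitochondrially encoded and -1.16 for rod genes, and for rd10-TMB over WT 0.45 for the ON cascade, 0.44 for ribosomal protein and -0.29 for mitochondrially encoded genes. The mitochondrially encoded medians for rd10-vehicle and rd10-TMB over WT were -0.071 and -0.028 at 1000 genes, 0.014 and 0.015 at the 10% limit, -0.080 and -0.036 with equal subgroup weights and -0.065 and -0.047 without E and F, and -0.13 for rd10-vehicle over the WT cells with Xist. The ribosomal protein medians were 0.081 and 0.12 at the 10% limit.

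The cluster's share of all cells was 8.62%, 8.42% and 8.27% in the WT, vehicle and TMB libraries. It was 9.78%, 14.5% and 13.0% without the Müller glia-like cells, 26.1%, 27.2% and 25.1% of bipolar cells, and 7.42%, 7.93% and 8.04% of cells with at least 1000 genes, where WT was the lowest of the 3 and not the highest. Without thinning the shares of cells with a UMI were 51.3%, 68.9% and 68.3% for Grm6, 60.9%, 76.0% and 75.9% for Isl1, 3.63%, 14.0% and 14.8% for Htr3a, and 9.80% in rd10-TMB for Cpne9. The causes were not tested. No paired analysis was possible because each group was 1 library.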
